A study of Mus musculus with 15 samples.

Results

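Interferon-stimulated genes are the genes that cells switch on when interferon binds its receptor. The set described here holds type I interferon receptors, the transcription factors that carry their signal and the genes these induce, 51 symbols listed by function. Of them 49 were found in the deposited table of 13834 genes. All 49 passed the filter on low values and stood among the 13175 genes tested. Ifi44 and Isg15 were not analysed here, and the Ifi200 family was not included.

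RNA had been sequenced from microglia, the resident macrophages of the brain, which were sorted from mouse brain by flow cytometry. The AF-high group (n = 5) held cells of high autofluorescence and the AF-low group (n = 3) cells of low autofluorescence, both from untreated mice 18 months old. The young group (n = 3) came from mice 3 months old. The PLX5622 group (n = 4) came from mice 18 months old treated with PLX5622, which inhibits the CSF1 receptor on which the survival of microglia depends. The sources used here do not give the gate applied to young and PLX5622 cells, the dose and schedule of the compound, or whether a library is 1 animal or a pool.

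Type I interferons bind a receptor made of Ifnar1 and Ifnar2. The kinases Jak1 and Tyk2 then phosphorylate Stat2, which joins Irf9 in a complex that enters the nucleus and binds interferon-stimulated response elements in promoters. The induced genes sense foreign RNA, block steps of viral growth, attach the ubiquitin-like protein ISG15 to other proteins and dampen the signal. In the brain, microglia are a main responder to interferon, and a subset of microglia with high interferon-stimulated genes has been described in aged brains.

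Levels are given in TPM, a share of all transcripts, a unit that corrects for gene length and for library size. Differences are differences of mean log2(TPM + 1) between groups, with their standard error, from a limma model fitted to all 13175 genes, and a call means an adjusted p (Benjamini-Hochberg) under 0.05. On this scale the change of a low gene is understated. Library totals lay between 956489 and 963145 TPM, and the depth in reads is unknown. The 12 microglial markers checked were all in the table and summed to 7170 to 13000 TPM per library, while 2 neuronal markers summed to 0.888 to 3.75 TPM. Some libraries stood apart. Mitochondrially encoded transcripts took 5.15% and 7.37% of TPM in AF-high 2 and 3 and 1.51% to 2.59% in the other libraries, and 6 choroid plexus markers summed to 7911 and 5185 TPM in young 1 and 2 but to 31.8 to 354 TPM elsewhere. Oligodendrocyte markers, 7 in the table, summed to 978.1 and 723.2 TPM in young 1 and 2 and to 57.3 to 124 TPM elsewhere. AF-low 1 had the lowest sum of microglial markers, 7172 TPM. The part of these transcripts in the results below was not tested, and the calls are given without young 1 and 2, and without AF-high 2, AF-high 3 and AF-low 1 together. Cell markers differed between groups too. Microglial markers were higher in AF-high than AF-low for 12 of 12 genes (2 without overlap, beside 1.05% of all genes). They were lower in AF-low than young for 12 of 12 (5 without overlap, beside 11.1% of all genes). None of them was called in either comparison. All 10 markers of border-associated macrophages, the macrophages of meninges and vessel walls, were in the table. PLX5622 libraries summed to 140 to 172 TPM for them, AF-high libraries to 253 to 336, AF-low libraries to 305 to 367 and young libraries to 185 to 243. With PLX5622 1 of 10 was called lower against AF-high, beside 0.471% of all genes, and 3 of 10 against AF-low, beside 0.144%. Of these markers 10 of 10 were higher in AF-low than in young (5 without overlap, beside 8.25% of all genes). Against AF-low 8 of 10 were lower in AF-high (4 without overlap, beside 1.71% of all genes). None of them was called in either comparison. Between PLX5622 and young, 9 of 12 microglial markers were lower (6 without overlap) and 3 higher. All 10 border-associated macrophage markers were lower there (3 without overlap). Of all genes 12.7% were lower without overlap in that comparison, and 30.7% had a positive difference. None of these markers was called there. The part of either list in the differences of Stat2, Samd9l and the other genes was not tested. Of 8 markers of plasmacytoid dendritic cells, potent makers of interferon, 5 were in the table. The lowest and highest sums were 209 and 228 TPM for young, 192 and 219 for PLX5622, 184 and 249 for AF-high and 179 and 299 for AF-low. Between PLX5622 and AF-high 4 of the 5 had a positive difference and 1 a negative one, beside 47.5% of all genes positive. None of them was called there, the smallest adjusted p being 0.0625 (Runx2, limma). Of 11 monocyte and neutrophil markers, 2 were in the table and summed to 4.55 to 8.29 TPM over all libraries. In bulk RNA, fewer cells of a type and less RNA per cell cannot be told apart.

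Interferon response elements were looked for in the promoters, whose sequence was not used to choose the genes. A choice by interferon response makes such elements likely, so a share above that of all genes is a description and not independent evidence. RefSeq promoters (GRCm38.p6), from 250 bases before to 50 bases after the start, matched 38 of the 49 genes by symbol. The motif searched was GAAA, any 2 bases and GAAA again, on either strand, so that on the other strand it reads TTTC, any 2 bases and TTTC. It stood in 15 of the 38 genes (39.5%) and in 3.99% of the 27025 genes of the promoter table. A second motif, TTCNNNGAA, bound by STAT dimers and the same on both strands, stood in 12 of the 38 genes (31.6%) and in 9.55% of all genes. A match is a description of the letters and shows no binding. Promoters of 5 genes are printed, the bases upstream of the RefSeq start and 5′ to 3′ on the gene's strand, with matches to the first motif in capitals. Stat2 and Samd9l are shown because they were called in the comparisons below, Oas1a and Gbp7 because their libraries separated by group, and Ifit3 as a classical interferon-stimulated gene.
Stat2, chr10:128270248-128270497, plus strand: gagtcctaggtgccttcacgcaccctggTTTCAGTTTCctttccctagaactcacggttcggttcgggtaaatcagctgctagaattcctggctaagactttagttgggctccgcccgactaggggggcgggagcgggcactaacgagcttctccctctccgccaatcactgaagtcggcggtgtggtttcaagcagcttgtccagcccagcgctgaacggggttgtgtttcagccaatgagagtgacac
Samd9l, chr6:3399572-3399821, minus strand: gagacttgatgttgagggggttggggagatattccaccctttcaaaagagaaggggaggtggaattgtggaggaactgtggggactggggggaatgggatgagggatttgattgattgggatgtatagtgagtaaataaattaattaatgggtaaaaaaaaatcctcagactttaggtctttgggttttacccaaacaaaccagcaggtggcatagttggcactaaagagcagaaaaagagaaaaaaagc
Oas1a, chr5:120907526-120907775, minus strand: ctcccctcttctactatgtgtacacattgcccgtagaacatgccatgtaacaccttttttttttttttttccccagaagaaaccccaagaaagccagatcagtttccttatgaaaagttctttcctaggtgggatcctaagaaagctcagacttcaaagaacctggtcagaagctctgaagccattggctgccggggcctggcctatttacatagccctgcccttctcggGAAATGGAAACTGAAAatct
Gbp7, chr3:142530086-142530335, plus strand: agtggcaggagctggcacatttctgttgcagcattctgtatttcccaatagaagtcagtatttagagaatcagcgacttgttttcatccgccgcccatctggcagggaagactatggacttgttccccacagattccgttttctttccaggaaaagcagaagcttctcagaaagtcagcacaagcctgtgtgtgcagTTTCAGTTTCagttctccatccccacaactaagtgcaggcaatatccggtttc
Ifit3, chr19:34583279-34583528, plus strand: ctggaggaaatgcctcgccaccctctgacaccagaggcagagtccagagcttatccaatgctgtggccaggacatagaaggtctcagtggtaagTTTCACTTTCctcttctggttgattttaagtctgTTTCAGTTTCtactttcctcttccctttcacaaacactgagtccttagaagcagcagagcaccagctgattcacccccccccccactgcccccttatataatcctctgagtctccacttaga
The Stat2 match lies at the far end of the window, 222 bases before the start. Oas1a has a pair of overlapping matches on the gene's strand, which begin 20 and 14 bases before the start. Ifit3 has separate matches that begin 156 and 122 bases before the start, and Gbp7 has 1 that begins 53 bases before it. Samd9l has no match to either motif in the 300 bases searched.

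**Figure D1:**
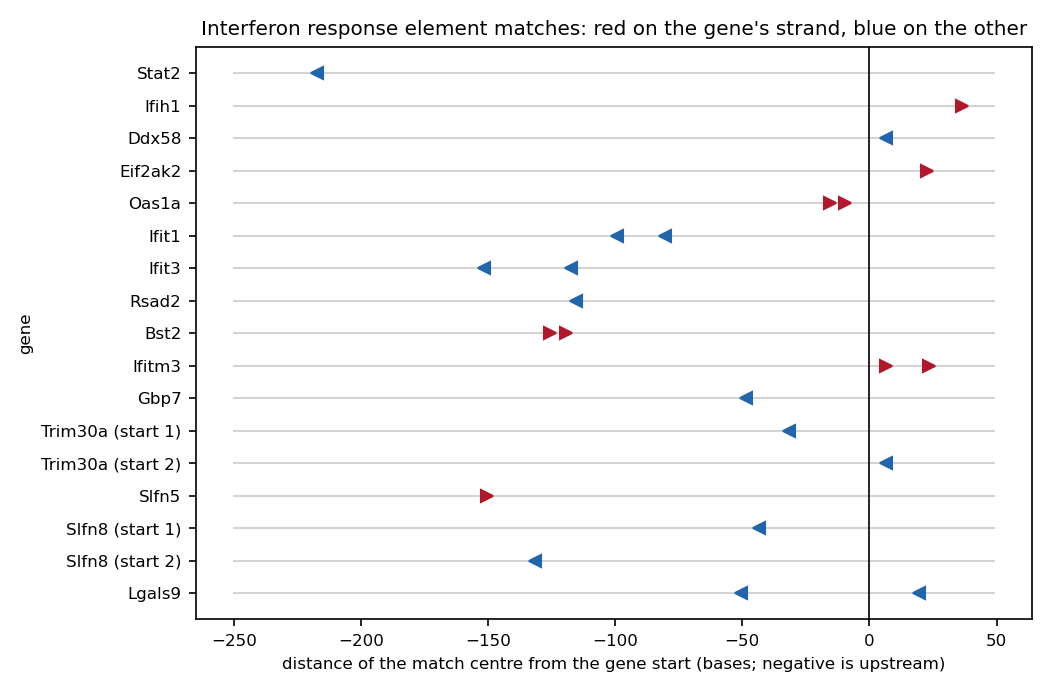
Position of each match to the interferon response element in the promoters of the 15 genes that hold one. The x axis is the distance of the match centre from the RefSeq start in bases, the grey line is the stretch searched, and red and blue mark the gene's own strand and the other strand. Trim30a and Slfn8 each have a match in the windows of both of their starts. For Slfn8 these windows overlap and both marks are the same bases.

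Across all 15 libraries the genes covered a wide range of levels. The median over libraries was under 10 TPM for 12 genes, 10 to 100 TPM for 29 and over 100 TPM for 8. Stat2 was by far the most abundant, and Cmpk2 and Oas2 were among the scarcest. Spread within a group was larger in the untreated old cells, AF-high and AF-low, than in the young and PLX5622 cells. The median SD of log2(TPM + 1) over the 49 genes was 0.43 in AF-high and 0.40 in AF-low, against 0.17 in young and 0.18 in PLX5622 libraries. Over all genes tested the same medians were 0.39, 0.34, 0.18 and 0.20. An AF-high library held the highest value of 28 genes and also the lowest value of 21, while a PLX5622 library held the highest of 8 and the lowest of 4. The genes did not move as a block. The median deviation of the 49 genes from their means ran from -0.22 (AF-high 3) to 0.20 (AF-high 4) in AF-high, from -0.09 to 0.19 in AF-low, from -0.18 to -0.05 in young and from 0.07 to 0.14 in PLX5622 libraries. The young libraries were thus all below and the PLX5622 libraries all above the middle, and the old untreated libraries spanned both.

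**Figure D2:**
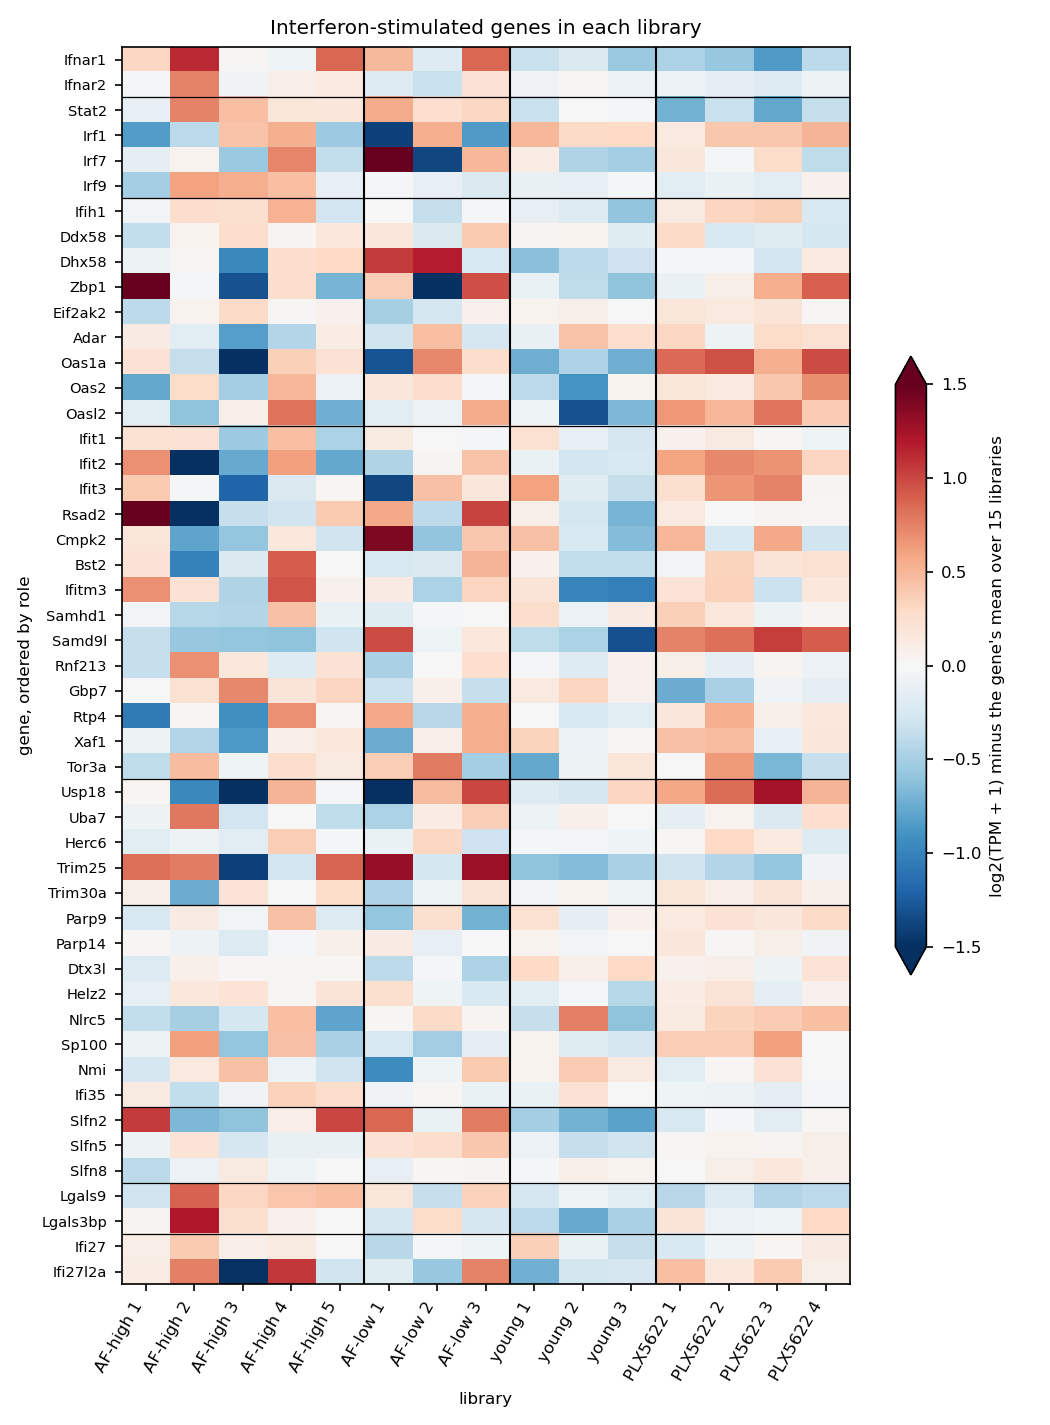
Each of the 49 genes (y axis, ordered by role) in each of the 15 libraries (x axis), as log2(TPM + 1) minus the gene's mean over libraries, red above and blue below; values past the ends of the colour scale take the end colours. The AF-high and AF-low columns are mottled, the PLX5622 columns are red for Oas1a, Samd9l and Usp18 and blue for Ifnar1 and Stat2.

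The receptor chains came first in the pathway. Ifnar1 (chr16:91485238-91507441, plus strand), the chain that docks Tyk2, stood at 80.0, 141, 65.2, 61.5 and 118 TPM in AF-high, at 90.8, 56.4 and 117 in AF-low, at 50.9, 55.2 and 43.6 in young and at 46.1, 43.1, 35.2 and 48.6 in PLX5622 libraries. The 4 PLX5622 libraries were below every AF-high and AF-low library, and the young libraries were too, while PLX5622 and young overlapped. The mean was 43.3 ± 5.82 TPM with PLX5622 (SD, n = 4) and 93.1 ± 34.8 in AF-high (SD, n = 5), a difference of -1.02 ± 0.25 that missed the threshold (adjusted p = 0.0684). It passed without AF-high 4 (adjusted p = 0.0413), without AF-low 2 (0.0484) and with library weights (0.0161), the range over 25 alternatives being 0.0161 to 0.236. Against AF-low the difference was -0.96 ± 0.28 (adjusted p = 0.151), and AF-high exceeded young by 0.82 ± 0.27 (adjusted p = 0.289). Ifnar2, the chain that binds Jak1, stood at 129.9, 220.1, 126, 141 and 146 TPM in AF-high, at 115, 104 and 153 in AF-low, at 127, 133 and 124 in young and at 124, 119, 115 and 125 in PLX5622 libraries. AF-high 2 stood apart from the other AF-high libraries, and every PLX5622 library was just below every AF-high one, by -0.31 ± 0.16 (adjusted p = 0.357). In the annotation 13869 bases of Ifnar2 overlap the gene Gm21970 on the same strand, so reads of both could be shared.

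The transcription factors differed in level and in pattern. Stat2 (chr10:128270559-128292849, plus strand), which joins Irf9 in the complex that binds response elements, stood at 970.0, 1777, 1444, 1197 and 1189 TPM in AF-high, at 1557, 1264 and 1310 in AF-low, at 842, 1052 and 1040 in young and at 649, 837, 624 and 828 in PLX5622 libraries. Every PLX5622 library was below every other library. The mean was 734 ± 114 TPM with PLX5622 (SD, n = 4) and 1315 ± 308 in AF-high (SD, n = 5). Stat2 was thus lower in PLX5622 than in AF-high, at 0.558 times the AF-high mean. The difference was -0.82 ± 0.17 on the log2 scale (limma, 95% interval -1.18 to -0.47, adjusted p = 0.0411). The call was narrow. It was kept in 9 of 25 alternatives, with adjusted p from 0.0174 to 0.18, and its direction in all 25. Among others it was lost with quantile normalization (0.0627), with equal library medians (0.0508), with a fit to both groups alone (0.0976), without young 1 and 2 (0.094) and on leaving out any PLX5622 library (0.0662 to 0.18), any young library (0.0538 to 0.0683), AF-high 2, 3 or 5 (0.0503 to 0.0667) or AF-low 3 (0.0507). Without AF-high 2 and 3 and AF-low 1 it held (adjusted p = 0.0492). Against AF-low the difference was -0.91 ± 0.19 (adjusted p = 0.0804), and it passed without AF-high 2 (0.0362), without AF-low 2 (0.0366) and with library weights (0.047), within a range of 0.0362 to 0.283. Against young it was -0.42 ± 0.19 (adjusted p = 0.934). Both old untreated groups had higher means than young, by 0.40 (AF-high, adjusted p = 0.435) and 0.49 (AF-low, adjusted p = 0.344).

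Irf9, which gives the complex its DNA contact, stood at 22.0, 48.8, 46.7, 43.9 and 29.1 TPM in AF-high, at 31.0, 29.0 and 27.2 in AF-low, at 29.4, 29.1 and 31.2 in young and at 28.0, 29.6, 28.3 and 33.2 in PLX5622 libraries. In AF-high 3 libraries were above all others of the series, 1 was the lowest and 1 stood among the rest. It shares 123 annotated bases with Rnf31 on the same strand. Irf7, the factor that amplifies interferon production, stood at 3.99, 4.70, 2.73, 8.08 and 3.25 TPM in AF-high, at 20.2, 1.12 and 6.75 in AF-low, at 4.94, 3.01 and 2.84 in young and at 5.15, 4.39, 5.64 and 3.19 in PLX5622 libraries. The AF-low libraries held both the highest and the lowest Irf7 value of the series, 18-fold apart, and no group separated. Irf1, which acts downstream of both interferon types, ranged from 83.7 to 326 TPM and was steadier in the young (287 ± 23.9, SD, n = 3) and PLX5622 (289 ± 29.2, SD, n = 4) libraries than in AF-high, at 124, 168, 299, 323 and 152, and AF-low, at 83.7, 326 and 124. Irf1 was called in none of the 6 comparisons with all libraries, but without AF-low 2 it passed in both AF-low against young and PLX5622 against AF-low. With all libraries Stat2 against AF-high was the 1 call among the 4 factors, beside 0.63% of all genes called in that comparison.

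**Figure D3:**
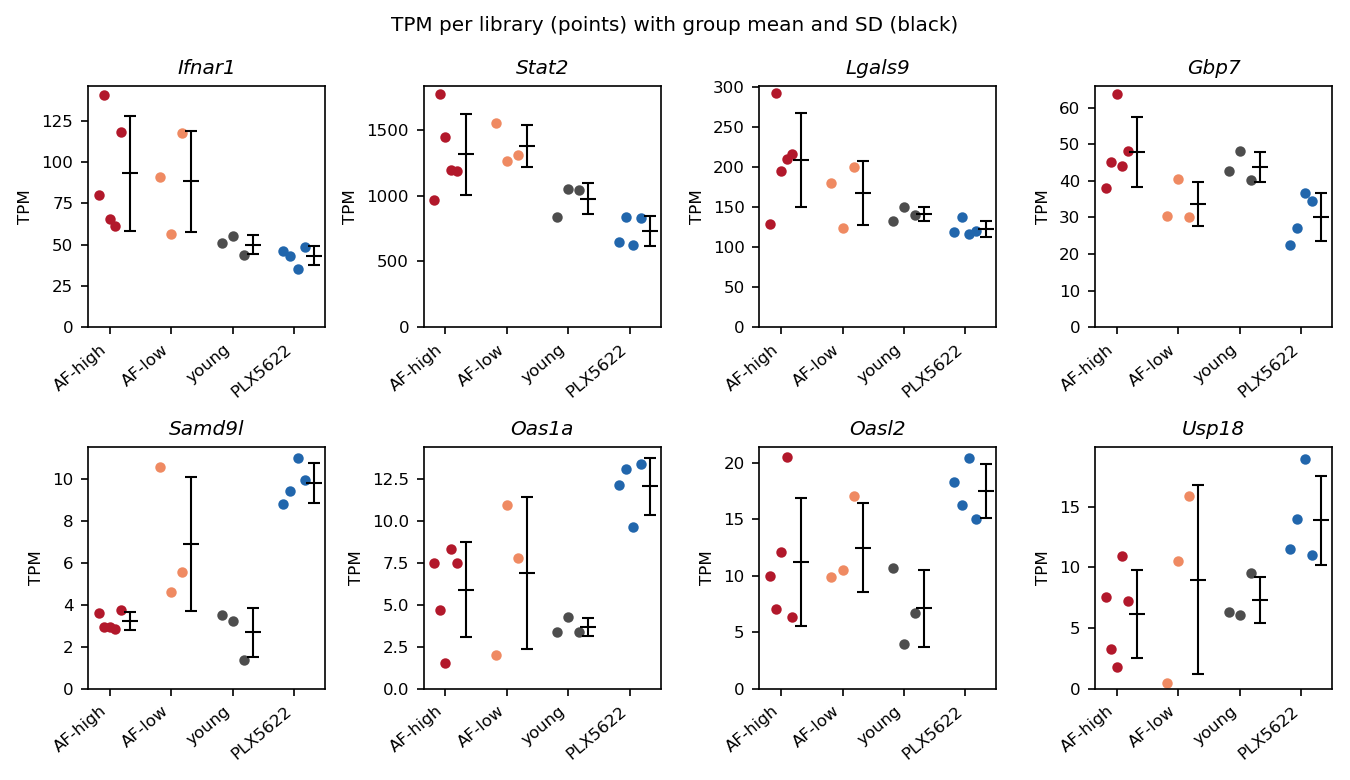
TPM in each library (points, y axis) by group (x axis) for 8 genes, with the group mean and SD in black. PLX5622 libraries lie at the bottom for Ifnar1 and Stat2, low for Lgals9 and Gbp7, and at the top for Oas1a and Usp18 against AF-high, with Samd9l at 8.82 to 11.04 TPM against 2.86 to 3.77 in AF-high.

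The 9 sensors of RNA and other nucleic acids were mostly of low to middling level. The oligoadenylate synthetases, which activate RNase L on meeting foreign RNA, held the largest difference. Oas1a (chr5:120896256-120907521, minus strand) stood at 7.503, 4.67, 1.53, 8.33 and 7.51 TPM in AF-high, at 1.98, 10.97 and 7.76 in AF-low, at 3.38, 4.29 and 3.39 in young and at 12.2, 13.1, 9.65 and 13.4 in PLX5622 libraries. The PLX5622 libraries were above all AF-high and all young libraries and overlapped AF-low through AF-low 2. The difference was 1.05 ± 0.40 from AF-high (adjusted p = 0.225) and 1.48 ± 0.46 from young (adjusted p = 0.502), so neither passed. Against young it did pass with a fit to those groups alone (adjusted p = 0.00605), with library weights (0.00458) and without AF-high 2 and 3 and AF-low 1 (0.00819), over a range up to 1. Oas1a and its neighbour Oas1g are close relatives and can share reads. Oasl2, an OAS-like protein, stood at 9.96, 7.07, 12.1, 20.5 and 6.38 TPM in AF-high, at 9.90, 10.51 and 17.1 in AF-low, at 10.7, 3.94 and 6.70 in young and at 18.3, 16.3, 20.4 and 15.01 in PLX5622 libraries. Its PLX5622 libraries were above all 3 young libraries, by 1.27 ± 0.35 (adjusted p = 0.354), and overlapped AF-high through the high value of AF-high 4. With library weights the Oasl2 difference from young passed (adjusted p = 0.00768, highest over the alternatives 1). Oas2 ranged from 0.901 to 4.72 TPM, and its PLX5622 libraries too lay above the young ones.

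The RNA helicases had other patterns. Dhx58, the helicase LGP2 that tunes the other RNA helicases, stood at 10.9, 11.8, 5.41, 14.1 and 14.4 TPM in AF-high, at 25.0, 27.5 and 9.66 in AF-low, at 7.10, 8.54 and 9.12 in young and at 11.3, 11.3, 9.30 and 12.9 in PLX5622 libraries. AF-low 1 and 2 were the highest of the series, and all AF-low libraries exceeded the young ones, by 1.11 ± 0.36 (adjusted p = 0.241). AF-high differed from AF-low by -0.76 ± 0.32 (adjusted p = 0.567) with overlapping libraries. Ifih1 (MDA5) ranged from 28.2 to 62.1 TPM and Ddx58 (RIG-I) from 83.1 to 141 TPM, both with overlapping groups in all 6 comparisons. Eif2ak2, the kinase that halts translation on double-stranded RNA, ranged from 24.2 to 42.5 TPM. Adar, which edits adenosines in double-stranded RNA, ranged from 5.42 to 14.5 TPM. Zbp1, a sensor of Z-form nucleic acids that can start cell death, ranged from 0.672 to 13.6 TPM, with 13.6, 3.69, 0.944, 4.75 and 1.95 TPM in the AF-high libraries alone, a 14.4-fold range. Of the 9 sensors, 8 had a positive difference between PLX5622 and AF-high, beside 47.5% of all genes, and 7 between PLX5622 and young, beside 30.7%, and none was called in any comparison.

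Among the antiviral effectors, Samd9l (chr6:3372257-3399572, minus strand), a cytoplasmic factor that restricts poxviruses and restrains translation, was steady within AF-high and within PLX5622. It stood at 3.62, 2.95, 2.94, 2.86 and 3.77 TPM in AF-high, at 10.6, 4.598 and 5.58 in AF-low, at 3.51, 3.23 and 1.35 in young and at 8.82, 9.44, 11.04 and 9.99 in PLX5622 libraries. The PLX5622 libraries were tight and above every AF-high and young library, and AF-low 1 reached into them. The mean was 9.82 ± 0.943 TPM with PLX5622 (SD, n = 4), 3.23 ± 0.431 in AF-high (SD, n = 5) and 2.70 ± 1.18 in young (SD, n = 3). Samd9l was higher in PLX5622 than in AF-high by 1.36 ± 0.24 (limma, 95% interval 0.85 to 1.86, adjusted p = 0.0266), at 3.04 times the AF-high mean. It was also higher than in young by 1.60 ± 0.27 (limma, 95% interval 1.03 to 2.18, adjusted p = 0.0361), at 3.64 times the young mean. Against AF-low the difference was 0.52 ± 0.27 (95% interval -0.06 to 1.10, adjusted p = 0.402). AF-low exceeded young by 1.08 ± 0.29 (adjusted p = 0.18), and every AF-high library was below every AF-low one, with a difference of -0.84 ± 0.26 (adjusted p = 0.477).

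The call against AF-high was kept in 19 of 25 alternatives, and that against young in 13 of 25, with adjusted p from 0.0147 to 0.114 and from 0.000467 to 0.455. Among others, the first was lost without PLX5622 1, 2, 3 or 4 (adjusted p = 0.0924, 0.0782, 0.114 and 0.0605) and without young 1 and 2 together (0.0616). Without AF-high 2 and 3 and AF-low 1 both held (0.0277 and 0.0134). The second was lost, among others, without any PLX5622 library (0.103 to 0.13), any young library (0.0659 to 0.139), AF-high 1 (0.0511), AF-high 5 (0.0625) or AF-low 3 (0.0535). Without young 1 and 2, the libraries with choroid plexus RNA, the difference from young was larger, 2.20, but had 1 young library left and an adjusted p of 0.455. The difference from AF-high was 1.30 to 1.58 under all 25 alternatives.

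Gbp7, a guanylate-binding GTPase, went the other way. It stood at 38.1, 45.1, 63.8, 44.0 and 48.1 TPM in AF-high, at 30.3, 40.5 and 30.0 in AF-low, at 42.5, 48.1 and 40.2 in young and at 22.5, 27.0, 36.7 and 34.4 in PLX5622 libraries. All PLX5622 libraries were below all AF-high and all young libraries, and they overlapped AF-low. The difference from AF-high was -0.65 ± 0.18 (adjusted p = 0.088), and AF-high differed from AF-low by 0.49 ± 0.19 (adjusted p = 0.525). Ifitm3, which blocks virus entry from endosomes, stood at 74.2, 53.7, 33.2, 88.9 and 48.0 TPM in AF-high, at 50.01, 32.8 and 57.7 in AF-low, at 52.7, 22.6 and 22.0 in young and at 53.2, 58.5, 36.6 and 51.2 in PLX5622 libraries. Young 1 stood well above young 2 and 3, within the range of the other groups, and the AF-high difference from young was 0.90 ± 0.33 (adjusted p = 0.325). Bst2, or tetherin, which holds budding virus at the membrane, stood at 65.7, 27.5, 48.4, 107 and 56.6 TPM in AF-high, at 47.5, 48.5 and 80.5 in AF-low, at 59.1, 43.4 and 43.3 in young and at 54.8, 71.4, 64.7 and 66.0 in PLX5622 libraries. Its AF-high libraries ran from the lowest to the highest value of the series.

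The IFIT proteins bind viral RNA or the translation machinery. Ifit3 stood at 10.1, 7.37, 2.68, 6.27 and 7.63 TPM in AF-high, at 2.28, 10.49 and 8.52 in AF-low, at 11.9, 6.44 and 5.64 in young and at 8.96, 12.4, 13.2 and 7.67 in PLX5622 libraries, with every group overlapping every other. Ifit1 ranged from 1.45 to 3.87 TPM. Ifit2 ranged from 0.503 to 5.94 TPM, and only between PLX5622 and young did its libraries separate (5.38, 5.94, 5.73 and 4.28 against 2.93, 2.45 and 2.60 TPM). Rsad2, or viperin, ranged from 0.286 to 11.9 TPM, and both ends of that range were AF-high libraries. Its neighbour Cmpk2, a mitochondrial nucleotide kinase, ranged from 0.456 to 5.66 TPM. Samhd1, which breaks down deoxynucleotides, ranged from 52.3 to 96.9 TPM, and Rnf213, a very large ubiquitin ligase, from 19.8 to 45.9 TPM. Rtp4, a chaperone of receptors, ranged from 4.75 to 18.3 TPM, Xaf1, a partner of an apoptosis inhibitor, from 10.7 to 30.1 TPM, and the torsin Tor3a from 40.01 to 118 TPM. Of the 14 effectors in the table, 13 had a positive difference between PLX5622 and young, beside 30.7% of all genes. Between PLX5622 and AF-high 10 had one, beside 47.5% of all genes. Samd9l was the 1 call in each, beside 0.63% (PLX5622 against AF-high) and 0.0911% (against young) of all genes called.

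The ISG15 pathway attaches a ubiquitin-like tag to proteins and removes it. Usp18, which removes the tag and also silences the receptor, stood at 7.59, 3.29, 1.81, 10.9 and 7.23 TPM in AF-high, at 0.498, 10.6 and 15.8 in AF-low, at 6.34, 6.04 and 9.498 in young and at 11.5, 14.0, 18.9 and 10.97 in PLX5622 libraries. The PLX5622 libraries were above all AF-high libraries, by 10.97 against 10.91 TPM at the boundary, and above all young ones. The difference from AF-high was 1.20 ± 0.57 (adjusted p = 0.332), and the AF-high libraries alone spanned 6.04-fold. Usp18 overlaps a long noncoding gene on the other strand. Uba7, the enzyme that activates ISG15, ranged from 37.5 to 92.1 TPM, and Herc6, its ligase in mouse, from 21.9 to 35.7 TPM. Trim25, a ligase that activates RIG-I, varied widely in the old untreated cells, at 47.3, 45.4, 9.31, 21.4 and 48.8 TPM in AF-high and 66.6, 21.7 and 66.0 in AF-low libraries, but stood at 16.9, 16.4 and 18.5 TPM in young and 21.2, 19.1, 17.3 and 25.4 in PLX5622 libraries. Trim30a, an inhibitor of innate signalling, ranged from 107 to 217 TPM. None of these 5 genes was called in any comparison.

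Groups of the 8 regulators of transcription and chromatin mostly overlapped. Parp9, an ADP-ribosyltransferase partner of Dtx3l, stood at 18.2, 23.7, 21.0, 29.8 and 18.7 TPM in AF-high, at 14.1, 25.8 and 12.8 in AF-low, at 25.6, 19.6 and 22.8 in young and at 24.2, 25.4, 24.6 and 26.6 in PLX5622 libraries. AF-low 1 and 3 were low and AF-low 2 was among the highest, and the difference between PLX5622 and AF-low was 0.56 ± 0.23 (adjusted p = 0.278, 0.0426 without AF-low 2 and up to 0.582 in the other alternatives). Dtx3l, the ubiquitin ligase that pairs with Parp9, ranged from 10.3 to 18.2 TPM and was lower in every AF-low than in every young library. Parp9 and Dtx3l lie side by side and overlap by 682 annotated bases on opposite strands, so without strand their reads could be mixed. Parp14 ranged from 25.8 to 33.7 TPM, the narrowest range of the 49 genes, at 1.31-fold. Helz2, a helicase coactivator, ranged from 2.69 to 4.87 TPM. Nlrc5, the transactivator of MHC class I genes, ranged from 10.4 to 32.3 TPM, with young 2 highest. Sp100, of nuclear bodies, ranged from 27.5 to 64.5 TPM, and all its PLX5622 libraries were above all AF-low ones. Nmi and its partner Ifi35 ranged from 14.8 to 40.4 and 14.8 to 24.8 TPM. None of the 8 was called in any comparison with all libraries.

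The Schlafen genes restrain growth and viral translation. Slfn5 stood at 10.8, 13.4, 9.42, 10.6 and 10.51 TPM in AF-high, at 13.4, 13.9 and 15.5 in AF-low, at 10.7, 8.81 and 9.11 in young and at 11.6, 11.9, 11.8 and 12.2 in PLX5622 libraries. All AF-low libraries were above every other library, with 13.44 TPM in the lowest of them against 13.36 in AF-high 2, and the difference from young was 0.54 ± 0.18 (adjusted p = 0.244). An antisense gene covers 9333 bases of Slfn5, so without strand its reads could be mixed in. Slfn2 ranged from 18.2 to 68.6 TPM, with young at 22.7, 19.6 and 18.2 and every AF-low library above all of them. Slfn8 ranged from 42.1 to 62.0 TPM. Lgals3bp, a secreted glycoprotein that binds galectins, stood at 114, 254, 130.1, 116 and 109.6 TPM in AF-high, at 92.3, 134 and 92.5 in AF-low, at 83.0, 64.9 and 78.7 in young and at 127, 104, 106 and 136 in PLX5622 libraries. Every old library, treated or not, exceeded every young one, by 0.86 ± 0.24 in AF-high (adjusted p = 0.211), 0.47 in AF-low (adjusted p = 0.509) and 0.64 with PLX5622 (adjusted p = 0.825). Lgals9, a galectin that signals to immune cells, ranged from 116 to 293 TPM, and its difference between PLX5622 and AF-high was -0.71 ± 0.19 (adjusted p = 0.0888). Ifi27, a small membrane protein, ranged from 112 to 196 TPM and was higher in every AF-high than in every AF-low library. Its relative Ifi27l2a ranged from 6.69 to 43.9 TPM, again with both ends in AF-high.

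Between AF-high and AF-low cells of 1 age, which differ by autofluorescence, none of the 49 genes was called, as none of the 13175 genes tested was (0% of all genes, limma). At an unadjusted p under 0.05 stood 4 of 49 genes, beside 8.21% of all genes. Ifi27 was higher in every AF-high library (1 gene, beside 1.05% of all genes), and Samd9l and Slfn5 were lower (2 genes, beside 1.71%). These were the 3 of 49 genes whose groups did not overlap, beside 2.76% of all genes. A positive difference was seen for 24 of 49 genes, beside 43.9% of all genes, with a median of -0.03 beside -0.04 over all genes.

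The comparisons with young mice set cells of different age side by side, but the gate applied to the young cells is not given. Age and gate therefore cannot be told apart in them. Some young libraries also held choroid plexus RNA, and the markers of border-associated macrophages differed from young, as given above. The part of these in the differences was not tested. AF-high against young gave no call (0% of all genes, limma) and 7 of 49 genes at an unadjusted p under 0.05, beside 11% of all genes. All 7 were higher in AF-high: Lgals3bp, Ifnar1, Ifitm3, Lgals9, Slfn2, Ifih1 and Stat2. Ifnar1 and Lgals3bp were higher without overlap and no gene was lower, beside 2.63% of all genes higher, 5.15% lower and 7.78% in either direction. A positive difference was seen for 32 of 49 genes, beside 39% of all genes, with a median of 0.15 beside -0.08.

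AF-low against young gave no call among the 49 genes either, beside 0.0455% of all genes, and 9 at an unadjusted p under 0.05 beside 11.8%. Higher without overlap were 8 genes, beside 8.25% of all genes: Ifnar1, Stat2, Dhx58, Samd9l, Trim25, Slfn2, Slfn5 and Lgals3bp. Dtx3l was the 1 gene lower without overlap, beside 11.1% of all genes. Together they made 18.4% of the 49 genes, beside 19.3% of all genes. A positive difference was seen for 29 of 49 genes, beside 45.7% of all genes, with a median of 0.17 beside -0.04. The medians against young were small without some libraries, at 0.02 (AF-high) and 0.03 (AF-low) without young 3, at 0.05 (AF-high) without AF-high 4 and at 0.01 (AF-low) without AF-low 3. Both comparisons share the young libraries and are not independent of each other.

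PLX5622 against AF-high sets cells from treated old mice beside the autofluorescent cells of untreated ones. It gave 2 calls, Samd9l higher and Stat2 lower, beside 0.63% of all genes tested, 0.159% higher and 0.471% lower. Oas1a, Samd9l and Usp18 were higher without overlap (3 genes, beside 2.37% of all genes), and Ifnar1, Ifnar2, Stat2 and Gbp7 were lower (4 genes, beside 4.18%). These 7 genes made 14.3% of the 49, beside 6.55% of all genes. At an unadjusted p under 0.05 stood 9 of 49 genes, beside 15.3% of all genes. A positive difference was seen for 32 of 49 genes, beside 47.5% of all genes, with a median of 0.10 beside -0.02.

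**Figure D4:**
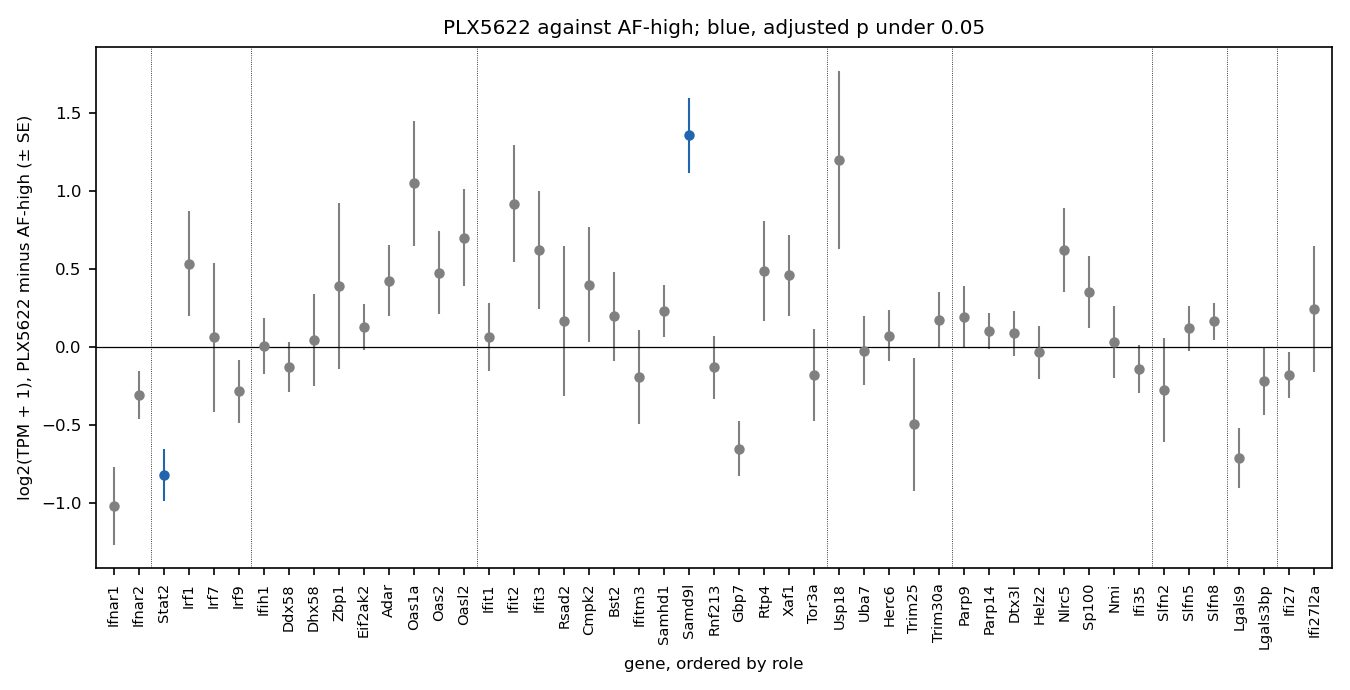
Difference in log2(TPM + 1) between PLX5622 and AF-high (y axis, with SE) for each of the 49 genes (x axis, ordered by role). Samd9l at 1.36 and Stat2 at -0.82 are in blue as called; Ifnar1 at -1.02 and Usp18 at 1.20 have larger errors and are in grey.

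PLX5622 against AF-low gave no call among the 49 genes, beside 0.144% of all genes (limma), with 8 genes at an unadjusted p under 0.05 beside 14.3% of all genes. Sp100 was higher without overlap (1 gene, beside 5.31% of all genes), and Ifnar1, Stat2 and Slfn5 were lower (3 genes, beside 10.9%), together 8.16% of the 49 genes beside 16.2% of all genes. A positive difference was seen for 33 of 49 genes, beside 44.4% of all genes, with a median of 0.11 beside -0.05. Without AF-low 2, 4 genes were called, Ifnar1, Irf1, Parp9 and Stat2.

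PLX5622 against young gave 1 call, Samd9l, beside 0.0911% of all genes, 0.0607% higher and 0.0304% lower. At an unadjusted p under 0.05 stood 8 of 49 genes, beside 5.23% of all genes. Higher without overlap were 14 of 49 genes, beside 3.28% of all genes. They were Samd9l, Oas1a, Oasl2, Oas2, Usp18, Ifit2, Zbp1, Ifi27l2a, Lgals3bp, Slfn2, Slfn5, Dhx58, Rtp4 and Trim30a, with differences from 0.15 (Trim30a) to 1.60 (Samd9l). Stat2 and Gbp7 were lower without overlap, 2 genes beside 12.7%. Together they made 32.7% of the 49 genes, beside 16% of all genes. A positive difference was seen for 36 of 49 genes, beside 30.7% of all genes, with a median of 0.15 beside -0.11. Quantile normalization and equal library medians moved the median of all genes in this comparison by 0.11 and 0.12 on the log2 scale, and the median of the 49 genes to 0.29 and 0.27. The comparisons of PLX5622 share their libraries with each other and with those above.

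**Figure D5:**
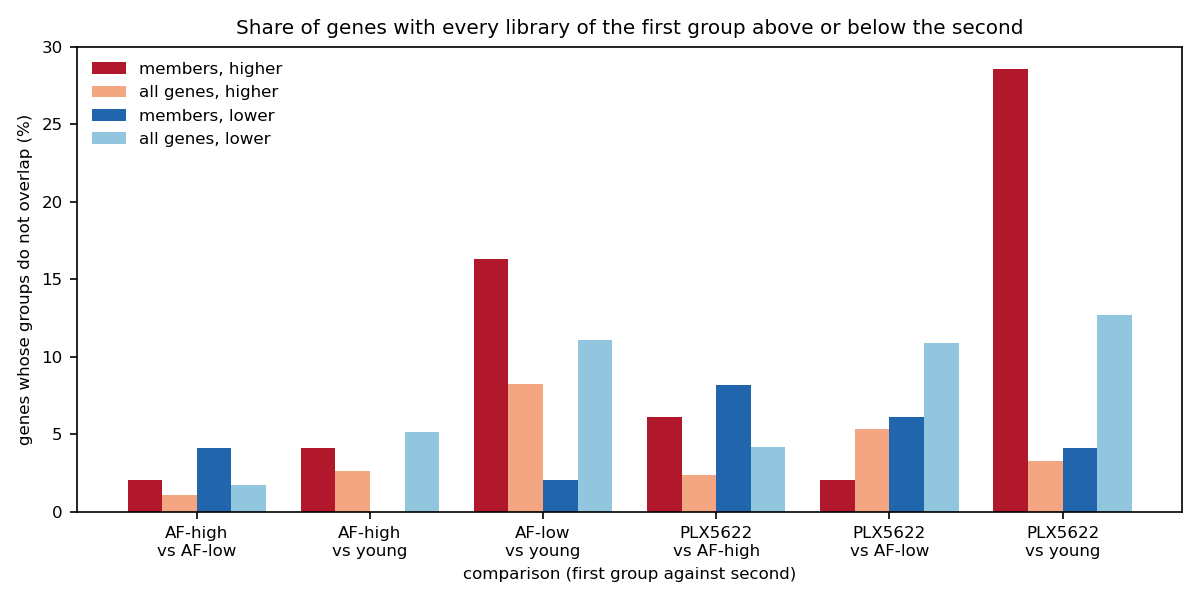
Share of genes, in percent (y axis), for which every library of the first group lay above or below every library of the second, for the 49 interferon-stimulated genes (dark bars) and all 13175 genes (light bars), red for higher and blue for lower, in each comparison (x axis). The tallest bar is that of genes higher with PLX5622 than in young, 14 of 49 beside 3.28% of all genes.

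Other genes of the pathway were counted from lists. Of 21 genes tested that sense nucleic acids and induce interferon, none was called in any comparison. The nearest was Ticam1, the adaptor TRIF, at 35.5 ± 2.51 TPM with PLX5622 (SD, n = 4) and 66.2 ± 15.7 in AF-high (SD, n = 5), a difference of -0.85 ± 0.19 (adjusted p = 0.0541). Tlr7, the endosomal RNA receptor, differed by -0.63 ± 0.19 (adjusted p = 0.124). Of 20 genes of receptor signalling, Ptpn6, the phosphatase SHP-1 that curbs JAK signalling, was the 1 call, between PLX5622 and AF-high, beside 0.63% of all genes. It stood at 331, 622, 463, 240.2 and 558 TPM in AF-high, at 366, 271 and 396 in AF-low, at 208, 306 and 241 in young and at 186, 199, 149.7 and 213 in PLX5622 libraries. Ptpn6 was lower in PLX5622 than in AF-high by 1.17 ± 0.24 on the log2 scale (limma, adjusted p = 0.0426). The call was kept in 8 of 25 alternatives, with adjusted p from 0.0132 to 0.18, and was lost, among others, on leaving out any PLX5622 library (0.076 to 0.18) or any young library (0.0584 to 0.0683), without AF-high 2 (0.0707), 3 (0.052) or 5 (0.0797) or AF-low 3 (0.0507), without young 1 and 2 (0.094) and without AF-high 2 and 3 and AF-low 1 (0.073). Ifngr2, a chain of the interferon gamma receptor, differed by -0.63 ± 0.20 (adjusted p = 0.153). Of this list 15 of 20 genes had a negative difference between PLX5622 and AF-high and 5 a positive one, beside 47.5% of all genes positive. The median of the list was -0.25 beside -0.02 over all genes.

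Of 74 other interferon-induced effectors tested, Ly6e, a membrane protein that alters virus entry, was the 1 call, again between PLX5622 and AF-high, beside the same 0.63%. It stood at 885, 1250, 722, 947 and 1004 TPM in AF-high, at 693, 696 and 794 in AF-low, at 603, 613 and 658 in young and at 574, 596, 586 and 691 in PLX5622 libraries. Ly6e was lower in PLX5622 than in AF-high by 0.63 ± 0.14 on the log2 scale (limma, adjusted p = 0.0495). The call was kept in 7 of 25 alternatives, with adjusted p from 0.00922 to 0.185, and was lost, among others, on leaving out any PLX5622 library (0.075 to 0.185) or any young library (0.0685 to 0.0786), without AF-high 1 (0.0508), 2 (0.0706) or 5 (0.0898) or AF-low 3 (0.0589) and without young 1 and 2 (0.109). It held without AF-high 2 and 3 and AF-low 1 (0.027). The nearest in the other direction was Tgtp2, an interferon-induced GTPase, at 22.9 ± 3.07 TPM with PLX5622 and 10.1 ± 4.53 in AF-high, a difference of 1.17 ± 0.28 (adjusted p = 0.0638). In PLX5622 against AF-high 42 of the 74 were positive, beside 47.5% of all genes, and 32 negative, with a median of 0.10 beside -0.02. No gene of the 3 lists was called in the other 5 comparisons.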

How the data were processed

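Microglia were sorted by flow cytometry, and RNA was isolated with RNAprotect and RNeasy reagents and amplified with Ovation reagents for low-input libraries, per the labels' protocols. The deposited values are TPM per gene. FastQC 0.11.8, Salmon 1.0.0, DESeq2 and the build GRCm38/mm10 are named per the submitters' processing notes. Not given in the sources used here are the commands, the annotation, the strand setting and the filter that gave 13834 genes. No value of the deposited TPM was 0, the smallest being 0.00583, and 19 lines whose symbol had become a date stayed in the fit. No 2 of the 15 libraries were identical.

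Groups came from the labels, which call the libraries biological replicates. Where these share animals, p-values measure only the spread between libraries. Genes at 1 TPM or more in at least 3 libraries (13175) were tested as log2(TPM + 1) in 1 limma model (limma 3.58.1, R 4.3.3, 11 residual degrees of freedom, prior 4.151 at the median) over all groups, in 6 two-sided comparisons. P-values were adjusted by the Benjamini-Hochberg method over all genes of a comparison, with calls under 0.05. The scripts passed a test on simulated data, made for PLX5622 against AF-high with the same spread of a gene in every group. Spread differed between the real groups, and the test does not cover that. The genes and pathway lists were chosen with earlier results of these data known. Each gene was named by role with its range. Values in every library were given for genes called, for the 3 of smallest p in each comparison and for Ifnar1, Ifnar2, Stat2, Irf7, Irf9, Usp18, Ifit3, Bst2 and Ifitm3, and of each pathway list for those called, with the 2 of smallest p named. The library values of Irf1, Zbp1, Ifit2, Trim25 and Slfn2 were chosen after they were seen.

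Alternatives were a pseudocount of 0.1, no filter, a filter at 5 TPM, quantile normalization, equal library medians, library weights, a replicate block, both groups alone, sets of libraries left aside, and each library left out, 25 in all. Gene coordinates are from GENCODE M21 (GRCm38), promoters from RefSeq (GRCm38.p6). Python 3.11.15, matplotlib 3.10.9 and jsonlite 2.0.0 were used.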

Additional observations from a re-analysis of the deposited data

Results flagged for a closer look

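In 7 of the 98 combinations of a gene with the AF-high or PLX5622 group, 1 library lay far from the others of its group by Dixon's criterion, and chance gives about 1 in 20. Groups of 3 libraries were not examined. AF-high 2 gave 3 of the 7. Ifnar2 was at 220.1 TPM there, with the other AF-high libraries at 126.5 to 145.5. Lgals3bp was at 254.1 TPM beside 109.6 to 130.1, and Uba7, the ISG15-activating enzyme, at 92.14 TPM beside 40.16 to 53.01. AF-high 2 also held 5.15% of its TPM in mitochondrial transcripts; its part in these values was not tested. Herc6 was at 35.66 TPM in AF-high 4 beside 24.42 to 27.14, and Dtx3l was lowest in AF-high 1, at 12.54 TPM beside 14.78 to 15.48. Among the PLX5622 libraries Ddx58 was at 130.9 TPM in PLX5622 1 beside 89.49 to 94.55, and Rtp4 at 16.48 TPM in PLX5622 2 beside 11.68 to 12.47.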

How the results depend on the processing

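For 20 gene results (the 3 of smallest p among the 49 genes in each comparison, and Ptpn6 and Ly6e, added after seeing the data), 419 of 500 recomputed values kept their direction and side of the threshold, 69 lost the call, 12 gained it and 0 turned direction. Other genes given with a test were not recomputed. Counts of calls among all genes moved far more, so the number of called genes rests on the settings, and their causes were not tested. Leaving out 1 library gave 0 to 1 calls over all genes for AF-high against AF-low, 0 to 56 for AF-high against young, 0 to 182 for AF-low against young, 1 to 205 for PLX5622 against AF-high, 2 to 398 against AF-low and 1 to 52 against young, with 182 and 398 both without AF-low 2 and 205 without AF-high 4. Among the 49 genes it gave 0, 0, 0 to 1, 0 to 3, 0 to 4 and 0 to 1 calls in the same order, with 0 against AF-high without any 1 of the PLX5622 libraries, and medians of -0.0654 to 0.081, 0.0177 to 0.19, 0.0062 to 0.18, 0.07 to 0.16, 0.05 to 0.16 and 0.13 to 0.24. Quantile normalization gave 1, 11, 4 and 22 calls over all genes (AF-high and AF-low against young, PLX5622 against AF-low and young), 1 of the 49 genes against AF-high, and medians of 0.27 and 0.29 for PLX5622 against AF-low and young. Equal library medians gave 7, 17 and 4 calls over all genes (AF-high and AF-low against young, PLX5622 against AF-low), 1 of the 49 genes for PLX5622 against AF-high and a median of 0.27 against young. Library weights gave 129 and 44 calls over all genes (AF-high and AF-low against young) and 441, 89 and 420 (PLX5622 against AF-high, AF-low and young), with 1 of the 49 genes for AF-high against young (Slfn2) and 4, 1 and 5 for PLX5622 (against young Gbp7, Lgals3bp, Oas1a, Oasl2 and Samd9l). A fit to both groups alone gave 0 calls over all genes for AF-low against young, 7, 0 and 65 for PLX5622 against AF-high, AF-low and young, and 1 and 2 of the 49 genes against AF-high and young. Without young 1 and 2 there were 0 calls over all genes for AF-low against young and 3, 3 and 0 for PLX5622, 0 of the 49 genes against AF-high and 0 against young, and a median of 0.26 against young. Without AF-high 2 and 3 and AF-low 1 there were 1 call over all genes for AF-low against young and 295, 45 and 30 for PLX5622, with 2 of the 49 genes against young (Oas1a and Samd9l). Replicate numbers were not taken to pair the libraries, as same-numbered libraries deviated together with correlations of only -0.08 to 0.14. With the replicate block there were 0 calls over all genes for AF-low against young and 0, 3 and 3 for PLX5622, 0 of the 49 genes against AF-high and 0 against young, with adjusted p of 0.0927 for Samd9l, 0.111 for Stat2, 0.142 for Ptpn6 and 0.145 for Ly6e against AF-high and 0.152 for Samd9l against young. Where a group was left with 1 library it was taken to vary like the others. Depth is unknown, and the 12 genes under 10 TPM are the least certain.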

Other observations

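Some interferon-induced genes outside the 49 stood near the threshold, and were picked out after their values were seen. Oas1g, the close relative of Oas1a, stood at 3.74, 0.168, 0.917, 3.77 and 2.59 TPM in AF-high, at 2.91, 4.49 and 6.84 in AF-low, at 2.48, 1.23 and 3.00 in young and at 8.90, 5.47, 6.87 and 6.11 in PLX5622 libraries. Its difference between PLX5622 and AF-high was 1.45 ± 0.38 (limma, adjusted p = 0.0829), in the direction of Oas1a, with which it can share reads. Gbp2, a guanylate-binding protein, stood at 45.4, 45.2, 40.5, 25.8 and 52.2 TPM in AF-high, at 40.1, 25.2 and 27.2 in AF-low, at 21.1, 23.4 and 18.0 in young and at 18.8, 25.3, 27.1 and 28.7 in PLX5622 libraries. AF-high differed from young by 0.94 ± 0.22 (adjusted p = 0.13) and PLX5622 from AF-high by -0.70 ± 0.21 (adjusted p = 0.116).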
